A study of Mus musculus with 12 samples.

Results

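The cortex of 22-month-old C57BL/6 mice was set against the cortex of 17-month-old C57BL/6 mice, 2 of the 12 arrays of the series analysed here. Both groups were untreated males without a transgene, housed individually and fasted overnight before they were killed under isoflurane. The labels give the tissue as prefrontal cortex, and the methods call it cortex. Each array carried RNA pooled in equal amounts from 3 animals, and there was 1 array of each age, so the data hold no spread between animals and no test between ages could be made. Arrays of the same tissue at 1.5 and 4 months and of the hippocampus of 8 transgenic or injected models are used below only to place the values.

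Genes were taken for the comparison when the scanner software marked at least 1 of their probes as well above background on the brighter of the 2 arrays. This held for 15661 of the 20886 genes with a symbol. Values are log2 signals, quantile normalized over the 12 arrays, and a ratio is the log2 signal at 22 months minus that at 17 months. The error given with a ratio (SE) comes from the signal error of the scanner software and covers the measurement of the spots only, not the animals. Between probes of the same gene, the ratios had a pooled SD of 0.30 over 3957 genes. A difference of at least 2-fold, a ratio of 1 or more on the log2 scale, was counted as higher or lower.

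The choroid plexus is a sheet of secretory epithelium that hangs in the brain ventricles and makes cerebrospinal fluid. The ependyma is the layer of cells with beating cilia that lines the ventricle walls. Both lie beside the cortex rather than in it, whereas neurons, astrocytes, oligodendrocytes, microglia, and vessels make up the cortex itself. The genes of these cell types were therefore described separately. In a bulk sample, fewer cells of a type and less RNA per cell cannot be told apart.

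For 5 ventricular genes that were dim on 1 of the arrays and clearly above background on the other, the promoters are shown, since these genes carried some of the widest contrasts of their lists. Kcne2, Steap1, and Otx2 belong to the choroid plexus list and were high at 17 months. Tmem212 and Ccdc153 belong to the list of motile cilia and ependyma and were high at 22 months. The sequences are from RefSeq on build GRCm38.p6, run from 250 bases before to 50 bases after a transcription start, and are written 5′ to 3′ on the strand of the gene. Where a gene has several starts, a window that holds a motif was chosen. Otx2 has 4 windows, of which the one with TAATCC is shown, while 2 of the others hold GTTGCC and 1 holds neither motif. Kcne2 has 2 windows, and the one not shown holds neither motif. The window of F5, a choroid plexus gene that was also dim at 22 months, holds neither motif and is not shown. Capitals mark GTTGCC, letters that RFX factors of ciliated cells bind, or its reverse complement GGCAAC, and TAATCC, letters that OTX factors bind, or its reverse complement GGATTA.
Kcne2, chr16:92292139-92292438, plus strand: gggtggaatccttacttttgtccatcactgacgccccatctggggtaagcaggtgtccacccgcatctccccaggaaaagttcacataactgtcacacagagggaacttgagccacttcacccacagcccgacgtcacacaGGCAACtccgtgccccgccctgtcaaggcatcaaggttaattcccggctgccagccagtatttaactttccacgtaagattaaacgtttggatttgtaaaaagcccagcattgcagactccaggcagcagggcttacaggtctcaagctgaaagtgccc
Steap1, chr5:5749268-5749567, minus strand: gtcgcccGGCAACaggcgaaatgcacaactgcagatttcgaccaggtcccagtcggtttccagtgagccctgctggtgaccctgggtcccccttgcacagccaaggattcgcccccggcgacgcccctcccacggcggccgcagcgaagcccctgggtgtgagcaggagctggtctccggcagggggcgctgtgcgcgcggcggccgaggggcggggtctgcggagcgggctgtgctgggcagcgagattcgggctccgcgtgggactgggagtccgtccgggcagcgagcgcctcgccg
Otx2, chr14:48665060-48665359, minus strand: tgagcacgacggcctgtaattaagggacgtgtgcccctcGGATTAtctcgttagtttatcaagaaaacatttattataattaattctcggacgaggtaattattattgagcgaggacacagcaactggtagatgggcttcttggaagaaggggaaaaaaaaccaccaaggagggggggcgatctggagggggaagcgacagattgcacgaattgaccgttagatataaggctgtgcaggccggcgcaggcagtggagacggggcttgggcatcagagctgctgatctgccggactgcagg
Tmem212, chr3:27896319-27896618, minus strand: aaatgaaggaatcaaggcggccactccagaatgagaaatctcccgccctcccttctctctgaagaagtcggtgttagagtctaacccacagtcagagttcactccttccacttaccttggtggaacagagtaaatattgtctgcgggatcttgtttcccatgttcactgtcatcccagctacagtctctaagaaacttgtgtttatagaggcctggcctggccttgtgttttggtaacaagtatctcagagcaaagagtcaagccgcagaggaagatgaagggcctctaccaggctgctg
Ccdc153, chr9:44240427-44240726, plus strand: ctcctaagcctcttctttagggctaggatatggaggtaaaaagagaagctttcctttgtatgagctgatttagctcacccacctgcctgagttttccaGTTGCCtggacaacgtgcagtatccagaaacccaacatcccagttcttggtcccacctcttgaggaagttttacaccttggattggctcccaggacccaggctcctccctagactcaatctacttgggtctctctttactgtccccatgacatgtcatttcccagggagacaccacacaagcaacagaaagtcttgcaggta
On either strand, GTTGCC was found in 43.5% of the 62 windows of 54 genes of the list of motile cilia and ependyma. It was found in 11.1% of the 45 windows of 32 choroid plexus genes and in 12.5% of all 32851 windows. TAATCC was found in 8.89% of the choroid plexus windows, in 14.5% of those of motile cilia and ependyma, and in 7.06% of all windows. A match is a description of the letters and not a site of binding, and the motifs do not overlap each other. The Ccdc153 window holds GTTGCC and that of Tmem212 holds neither motif.

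Over all genes used, 322 were at least 2-fold higher and 318 at least 2-fold lower at 22 months, which is 2.06% and 2.03% of the genes, or 4.09% in either direction. The median ratio was 0.01 and the SD of the ratios 0.53. In the comparison of the arrays at 4 and 1.5 months, which shares no array with this one, 4.2% of 15654 genes differed by at least 2-fold. Calls lay mostly at the dim end. Where the mean log2 signal was under 6, 16.8% of the genes were called, and where it was 10 or more, 0.51% were. Of the 640 genes called, 339 (53.0%) had no probe above background on the dimmer array, so their ratios depend on values at the floor, and their differences are given below as bounds ("at least N-fold") against the lowest signal that was well above background there. With bounds in place of such ratios, 215 genes were at least 2-fold higher and 206 at least 2-fold lower.

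The arrays at 17 and 22 months were alike in signal, with 66.6% and 66.4% of the probes well above background. By the scanner coordinates of their spots, both occupied the same position of a slide and so lay on different slides, and slide and age cannot be told apart. Cortical identity was checked with genes of known regional use. Cux2, a transcription factor of upper-layer cortical neurons, read 8.25 at 17 months and 8.19 at 22 months, and between 6.30 and 7.28 on the hippocampus arrays. Prox1, a marker of dentate granule cells, read 5.18 and 5.59, against 7.60 to 8.21 in the hippocampus. Both arrays thus carried the cortical pattern of these genes. Of the 318 lower genes, 180 stood at least 2-fold away from the mean of the arrays at 1.5 and 4 months at 17 months only and 20 at 22 months only. Of the 322 higher genes, 66 did so at 17 months only and 146 at 22 months only. But 174 of the lower genes had no probe above background at 22 months, and 165 of the higher genes had none at 17 months. With all probes above background on both arrays, 50 of 111 lower genes stood away from that mean at 17 months only and 4 at 22 months only. Of 124 such higher genes, 35 did so at 17 months only and 34 at 22 months only.

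Choroid plexus genes were lower at 22 months. Of 42 genes listed, 41 had a probe and 38 were used, and 24 of these 38 were at least 2-fold lower and 0 at least 2-fold higher, where 2.03% of all genes used were lower. The median ratio was -1.29, with quartiles of -2.25 and -0.82. Slco1a5, Krt8, and Lmx1a were not well above background on either array and were not used. Of the 24 genes, 9 had no probe above background at 22 months. Among the members above background on both arrays, 15 were at least 2-fold lower and the median was -1.10, and with bounds in place of floor values 21 of 38 were lower and the median was -1.14. With the normexp background correction, which draws dim signals together, 12 were at least 2-fold lower and the median was -0.69.

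Ttr encodes transthyretin, the carrier of thyroid hormone and retinol that the choroid plexus epithelium secretes in bulk. Its log2 signal was 5.11 at 1.5 months, 6.06 at 4 months, 15.57 at 17 months, and 6.85 at 22 months. The 17-month array alone was high, and the signal at 22 months was 422-fold lower than at 17 months (ratio of -8.72, SE 0.21). The hippocampus arrays read between 11.27 and 17.38. Ttr had the widest ratio of all genes used.

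Transcription factors and epithelial genes of the list also had ratios below 0. Otx2, the homeodomain factor that the choroid plexus needs to form and persist, read 1.76, 3.37, 7.62, and 4.42 at 1.5, 4, 17, and 22 months, a ratio of -3.19 (SE 0.33). Msx1, another homeodomain factor of the list, read 7.73, 7.14, 7.99, and 7.31, a ratio of -0.68. Krt18, a keratin of simple epithelia, read 3.66, 4.65, 7.50, and 5.20. Otx2 was not above background at 1.5 or 4 months, and Krt18 not at 1.5 months, whereas Msx1 was above background at every age.

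Ion channels and water channels of the epithelium made up a second group. Kcne2, a potassium channel subunit of its apical membrane, read 2.81, 1.92, 7.76, and 2.25. It was above background in the cortex at 17 months only, and was at least 12.1-fold lower at 22 months. Aqp1, the water channel of cerebrospinal fluid secretion, read 3.92, 4.72, 7.64, and 5.36 (ratio of -2.29). Clic6, a chloride channel protein, read 4.67, 5.47, 8.94, and 6.39 (ratio of -2.54). Kcnj13, an inward rectifier, read 8.66, 7.80, 9.28, and 7.81 (ratio of -1.47). Folr1, the folate receptor that carries folate into the fluid, had a ratio of -0.90 as the mean of 2 probes that disagreed, at -2.60 and 0.79.

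Transporters and junction proteins had ratios on both sides of 0. Slc4a5, a sodium bicarbonate cotransporter, was above background at 17 months only, with a log2 signal of 5.92, and was at least 3.38-fold lower at 22 months. Slc16a8, a lactate transporter, had a ratio of -1.12, and Slc13a4, a sulfate transporter, one of -0.89. Slc29a4, a monoamine transporter, read 10.31 and 10.24, and Slc26a11 was the member with the highest ratio, at 0.63. Cldn2, the pore-forming claudin of this epithelium, read 3.68 at 17 months with 1 of its 2 probes above background and was not above background on the other 3 cortex arrays, so that no bound could be given. Abca4 was at least 1.35-fold lower and Steap1, of the metalloreductase family, at least 7.41-fold lower.

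Secreted proteins and hormone receptors differed as well. Sostdc1, an inhibitor of Wnt and BMP signals, read 4.60, 4.16, 7.93, and 4.93, and both of its probes gave a low ratio, -3.16 and -2.82. Kl, the anti-ageing hormone klotho, read 6.03, 5.66, 8.48, and 6.38 (ratio of -2.10, SE 0.21). Prlr, the prolactin receptor, read 5.34, 5.72, 7.15, and 5.35. F5, coagulation factor V, was at least 3.31-fold lower, and Wfdc2, a protease inhibitor, had a ratio of -2.13. Igf2, a growth factor that the meninges make as well, read 8.34, 7.72, 8.85, and 7.51 (ratio of -1.35), and Ecrg4 read 8.67, 8.05, 9.90, and 8.15. Igf2 thus differed less between 17 and 1.5 months than between 17 and 22 months.

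The remaining members at least 2-fold lower by their ratios were Calml4, Tmem72, Lbp, Col8a2, and Col8a1, with ratios from -1.57 to -1.08. Calml4, Tmem72, and Col8a1 were not above background at 22 months. As bounds, these 3 genes were at least 2.97, 2.35, and 1.86-fold lower. By ratio, Col8a1 (-1.08) and Col8a2 (-1.10) lay just inside the 2-fold limit, and Igfbp2 (-0.93) and Folr1 (-0.90) just outside it. The other members lower by less than 2-fold and not named above were Ace, Trpv4, Enpp2, Cdkn1c, Rdh5, Perp, and Car12, with ratios between -0.85 and -0.24, and Sulf1 stood at 0.04. Enpp2, which makes lysophosphatidic acid and is used by oligodendrocytes too, read 14.36, 14.19, 14.79, and 14.13.

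The 17-month array read highest of the 4 cortex arrays for 33 of the 38 members (86.8%), and for 31.7% of all genes used. Of the 38, 9 passed the filter on the 17-month array only, so the filter itself set their 17-month reading above that at 22 months. The median member read 5.39 at 1.5 months, 5.63 at 4 months, 7.70 at 17 months, and 5.81 at 22 months, so the arrays at 1.5, 4, and 22 months lay together. Of the 41 members with a probe, 28 were above background at 1.5 months, 31 at 4 months, 38 at 17 months, and 29 at 22 months. Of the 24 genes lower by at least 2-fold, 14 were at least 2-fold away from the mean of the young arrays at 17 months only, 6 at both ages, 4 at neither, and 0 at 22 months only. In the comparison of 4 with 1.5 months, 1 choroid plexus gene of 31 was lower and 2 were higher, where 1.72% of all genes used were lower and 2.47% higher. The share of choroid plexus tissue in the dissections was not measured.

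**Figure D1:**
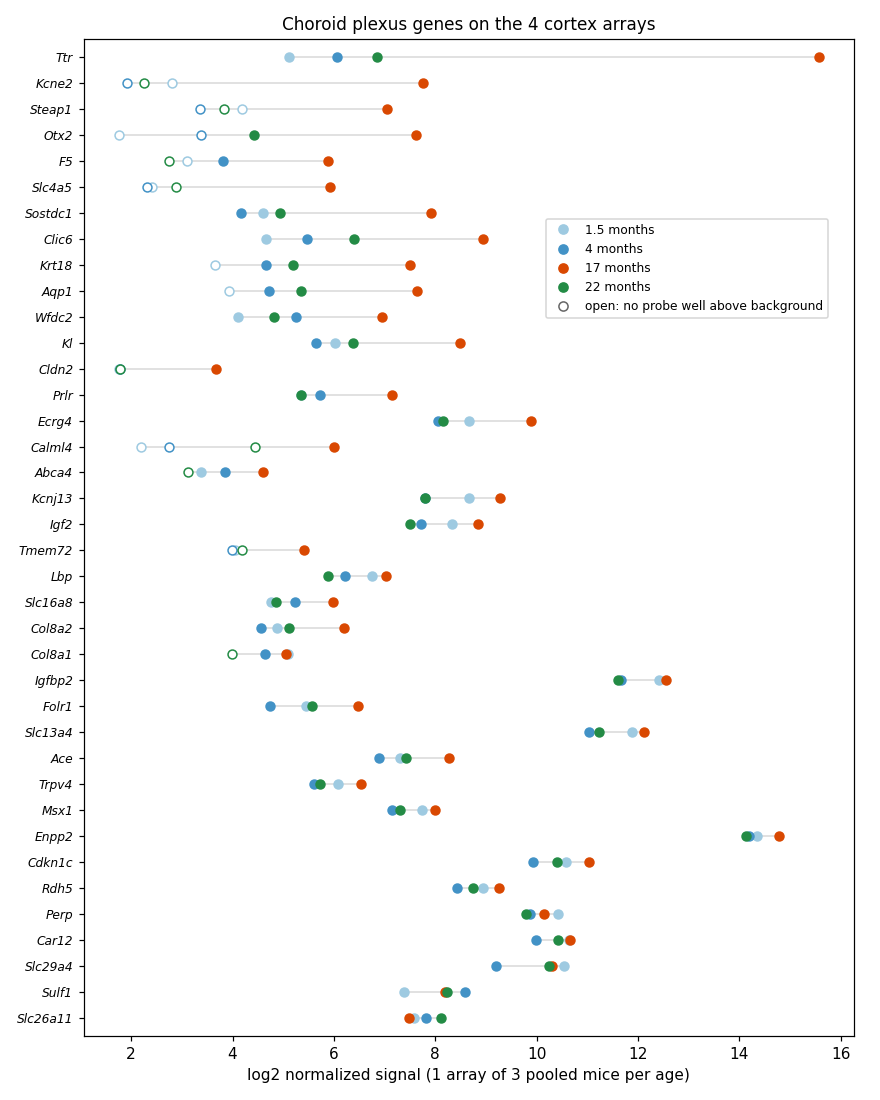
Log2 normalized signal (horizontal axis) of the 38 choroid plexus genes used, ordered by ratio, with 1 point for each cortex array by age; open points had no probe well above background. The 17-month points stand to the right of the other ages for 33 of the 38 genes, by the widest margin for Ttr. Of the 38 genes, 9 were used through the 17-month array only.

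Genes of motile cilia and ependyma did not share the direction of the choroid plexus genes. Of 66 genes listed, 60 had a probe and 51 were used. Of these, 3 were at least 2-fold higher and 4 at least 2-fold lower, where 4.09% of all genes used differed in either direction, and the median ratio was 0.08. The choroid plexus epithelium also carries cilia, and ependyma is the main source of most of these genes in the adult brain.

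The genes higher at 22 months were Tmem212, Dnah9, and Ccdc153. Ccdc153, a coiled-coil protein used as an ependymal marker, read 4.66, 3.98, 5.33, and 7.87 at 1.5, 4, 17, and 22 months (ratio of 2.54, SE 0.24). Tmem212, a membrane protein of ependymal cells, read 1.83, 1.81, 1.86, and 5.93 and was at least 3.30-fold higher. Both were above background on all 8 hippocampus arrays, where Ccdc153 read at least 9.36. Dnah9, an outer-arm dynein heavy chain, read 1.66 and 4.57 and was at least 1.28-fold higher. Both Tmem212 and Dnah9 were thus not above background at 17 months, and Dnah9 lay close to the floor at 22 months.

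The genes lower at 22 months were Stoml3, Gmnc, Rfx2, and Wdr63. Gmnc, a coiled-coil regulator that starts the programme of multiciliated cells, read 5.05, 4.27, 5.89, and 3.95 and was at least 3.32-fold lower. Rfx2, a transcription factor of cilia genes, was at least 1.74-fold lower. Wdr63, a part of the inner dynein arm, read 7.24 and 6.22, with its 2 probes at -1.59 and -0.45. Stoml3, a stomatin of cilia and of olfactory sensory neurons, read 4.72 at 17 months and was not above background on the other cortex arrays.

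Most members of the list, 44 of 51, differed by less than 2-fold, although the ependymal markers Ccdc153 and Tmem212 did not. Foxj1, the master transcription factor of motile cilia, read 7.23, 7.51, 7.42, and 7.32 (ratio of -0.11, SE 0.21). Rsph1 of the radial spoke had a ratio of -0.02, Tekt1 of 0.05, Cfap126 of 0.23, Dnah5 of -0.44, and Dynlrb2, a dynein light chain, of 0.56. All 6 ratios lie within the 2-fold limit, and those of Foxj1, Rsph1, Tekt1, and Cfap126 within the SD between probes of 1 gene. The 22-month array read highest of the 4 for 24 of the 51 genes (47.1%), and for 3763 of all 15661 genes used. The 17-month array read highest for 15. The median member read 6.84 at 17 months and 6.93 at 22 months.

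**Figure D2:**
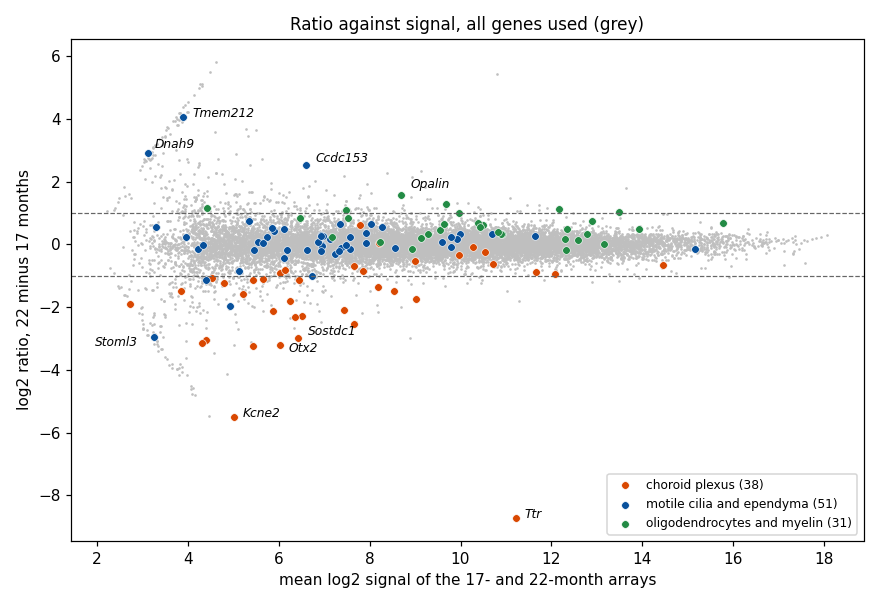
Log2 ratio of 22 to 17 months (vertical axis) against the mean log2 signal of both arrays (horizontal axis) for the 15661 genes used, in grey, with 3 lists in colour and the 2-fold limits dashed. Choroid plexus genes lie below 0 at nearly every signal, myelin genes mostly above it, and 7 cilia genes lie past the limits, 3 above and 4 below.

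Cells of the meninges and vessels surround the cortex and enter it, and few of their genes differed by 2-fold, with list medians below 0. Of 30 meningeal and perivascular fibroblast genes, all used, 1 was at least 2-fold lower, where 2.03% of all genes used were, and 0 higher, with a median ratio of -0.53, and 26 of the 30 lay below 0. Mgp, matrix Gla protein, read 13.09, 12.54, 13.50, and 12.30 (ratio of -1.20, SE 0.20). Just under the limit lay the transporters Slc47a1 (-0.99), Slc6a13 (-0.96), and Slc22a6 (-0.93), which the arachnoid barrier and pia use. Here the 17-month array did not stand alone, since the 1.5-month array read highest of the 4 for 17 of the 30 genes and the 17-month array for 11. Col1a1, a collagen of fibroblasts, read 9.88, 8.80, 8.73, and 8.35, and Dcn, decorin, 12.27, 11.51, 11.26, and 11.49. Both were highest at 1.5 months, whereas Col6a1, another collagen of the list, was highest at 22 months, at 10.66.

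None of the 28 genes of the endothelium and none of the 16 genes of pericytes and smooth muscle differed by 2-fold, with median ratios of -0.21 and -0.16. Cldn5, the claudin of the blood-brain barrier, read 12.71 and 12.77 at 17 and 22 months. Of 9 genes of red blood cells, 2 were at least 2-fold lower, where 2.03% of all genes used were. These were Slc4a1 (the band 3 anion exchanger), at 7.26 and 5.51, and Hba-a1, an alpha globin, at 16.43 and 15.40. The ratio of Hba-a1, -1.03, lay just past the limit. The globin genes share near-identical sequence, so their probes may read each other's RNA. Hbb-bt and Alas2, the haem enzyme of red cells, had ratios of -0.90 and -0.94, while Bpgm and Fech, which brain cells use as well, had ratios of 0.10 and 0.21. The fibroblast and blood cell medians, -0.53 and -0.70, thus lay below 0 on the same arrays as the choroid plexus median, and their part in that result was not tested.

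Myelin genes were the glial group with the most members past the 2-fold limit, and these members were higher at 22 months. Of 32 genes of oligodendrocytes and myelin, all with a probe, 31 were used, 7 were at least 2-fold higher and 0 lower, against 2.06% of all genes used. The median ratio was 0.50, and 29 of the 31 lay above 0. With the normexp correction, 4 were at least 2-fold higher. Opalin, a membrane glycoprotein of mature oligodendrocytes, read 8.17, 9.68, 7.90, and 9.49 at 1.5, 4, 17, and 22 months (ratio of 1.59, SE 0.21). Bcas1, a marker of newly myelinating cells, read 11.31, 12.72, 11.60, and 12.73 (ratio of 1.12). Mal, a lipid-raft protein of compact myelin, read 13.23, 14.40, 12.98, and 14.01 (ratio of 1.04). The arrays at 4 and 22 months read high for all 3 genes, and those at 1.5 and 17 months low.

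Fa2h, which makes the hydroxylated lipids of myelin, had a ratio of 1.01, and Nkx6-2, a transcription factor of oligodendrocytes, one of 1.11. Enpp6, a choline phosphodiesterase, was not above background at 17 months and was at least 1.73-fold higher. Mobp had a ratio of 1.30, from 3 probes at 0.85, 0.97, and 2.10, and the probe at 2.10 read 10.24 at 17 months and at least 11.70 on the other 11 arrays. Mbp, myelin basic protein, had 3 probes at -0.45, 0.20, and 2.12, so the mean of 0.62 describes none of them. Mag and Mog, adhesion proteins of the sheath, had ratios of 0.76 and 0.45. The lineage factors Olig1, Olig2, and Sox10 read closer to each other at both ages, with ratios of 0.15, -0.14, and 0.33.

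Relative to the young arrays, the 17-month array read lower for myelin genes than the array at 4 months. The median member read 9.69, 10.81, 10.13, and 10.73 at the 4 ages, and the 4-month array was the highest for 24 of the 31 genes. From 1.5 to 4 months, 17 of 31 myelin genes were at least 2-fold higher. None of the 14 genes of oligodendrocyte precursors differed by 2-fold between 17 and 22 months (median ratio of 0.00), and Pdgfra, their receptor for platelet-derived growth factor, read 9.62 and 9.67.

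None of the 20 astrocyte genes differed by 2-fold, with a median ratio of -0.08. Aqp4, the water channel of their endfeet, read 11.14 and 11.03, and Slc1a2, the main glutamate transporter, 11.79 and 11.58. Gfap, the intermediate filament that reactive astrocytes make more of, read 9.61, 9.23, 9.41, and 9.33 as the mean of 3 probes with ratios from -0.70 to 0.56. Among 31 genes of reactive astrocytes, 3 were lower and 0 higher, where 2.03% and 2.06% of all genes used were. The median ratio was -0.19, 22 of the 31 lay below 0, and with bounds in place of floor values 2 were lower. Lcn2, lipocalin 2, read 6.83, 8.45, 8.91, and 6.74 (ratio of -2.17), Hspb1, a small heat shock protein, read 12.40 and 11.26, and Cd109 was at least 1.68-fold lower. Lcn2 is a neutrophil granule protein as well.

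Neuronal genes were close to equal at both ages. Over the 229 genes used of the neuronal lists, 6 were at least 2-fold higher and 7 lower (5.68%, against 4.09% of all genes), and the median ratio was -0.08. None of 24 general neuronal genes, 25 glutamate receptor genes, or 30 genes of the GABA system and interneurons differed by 2-fold, and their medians were -0.07, -0.14, and -0.10. Rbfox3, the nuclear antigen NeuN, read 13.31 at both ages. Snap25, a protein of synaptic release, read 15.95 and 15.73, and Gad1, which makes GABA, 13.17 and 12.93. These defining genes were bright on both arrays, and their differences were below the SD between probes of 1 gene.

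The neuronal genes that passed the limit were mostly dim or measured by disagreeing probes. Syn3, a synapsin, had a mean ratio of 1.36 from 2 probes at -0.42 and 3.14. Igfbpl1, a marker of newborn neurons, was above background at 22 months only and was at least 1.36-fold higher. Pdyn, the dynorphin precursor, was at least 1.33-fold higher. Ucn, urocortin, read 5.51, 3.78, 6.18, and 4.80 (ratio of -1.39), and Avp, vasopressin, read 4.94, 4.63, 6.77, and 5.60 (ratio of -1.17). Both peptides were highest at 17 months.

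Immediate early genes, which neurons switch on within minutes of activity, differed in both directions. Of 38 used, 5 were at least 2-fold lower and 1 higher, where 2.03% and 2.06% of all genes used were, with a median ratio of -0.30 and 31 of the 38 below 0. Arc, which acts in synaptic plasticity, read 12.35, 13.66, 14.47, and 13.39 (ratio of -1.07, SE 0.20). Npas4, a transcription factor of activity-dependent inhibition, read 10.90, 11.25, 10.74, and 9.53, so that it was lowest at 22 months. Maff read 7.44 and 5.82, Sik1 8.47 and 7.44, and Egr3 5.65 and 4.60. Junb, a partner of Fos, went the other way, at 5.38 and 6.75. Fos and Egr1, the most used markers of activity, had ratios of 0.11 and 0.04, so the members did not move as a block.

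Markers of neighbouring regions were read to see how the dissections compared. Drd2, the dopamine receptor of striatal neurons, read 3.16, 6.94, 4.23, and 5.83 (ratio of 1.60). Drd1 and Rgs9, which the striatum also uses strongly, had ratios of 0.86 and 0.85. Over the 17 striatal genes used, 2 were higher and 0 lower, where 2.06% and 2.03% of all genes used were, with a median of 0.19. With bounds in place of floor values, 1 striatal gene was higher. None of 27 cortical layer genes and none of 14 thalamic genes differed by 2-fold. Chrna5, a nicotinic receptor subunit, read 4.39 and 5.46. Gh, growth hormone of the pituitary, read 1.71, 1.74, 1.71, and 6.16 and was at least 3.87-fold higher, whereas Prl, the other main pituitary hormone, was not above background at any of the 4 ages.

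**Figure D3:**
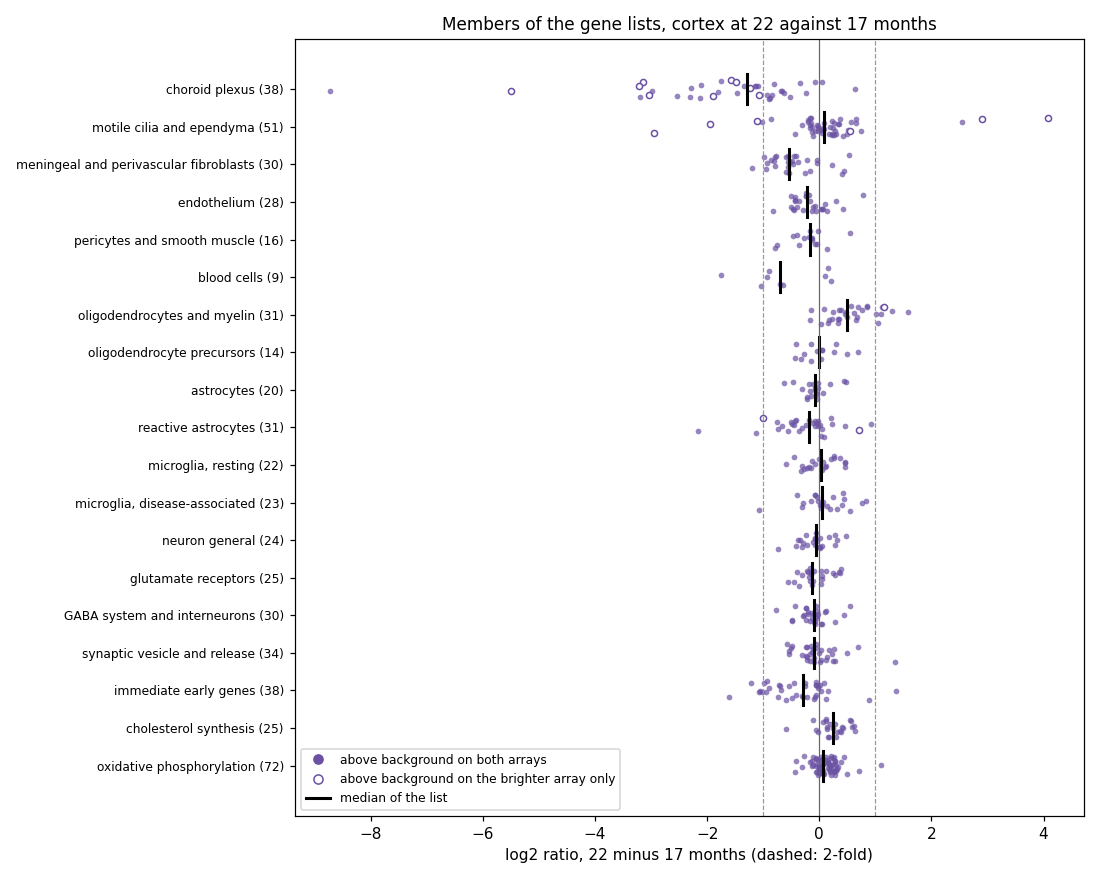
Log2 ratio of 22 to 17 months (horizontal axis) for the members of 19 gene lists, 1 point a gene, with the number used in parentheses, the median as a bar and the 2-fold limits dashed. The choroid plexus median stands at -1.29, the myelin median at 0.50, and the medians of astrocytes, microglia, and the 4 lists of general, glutamate, GABA, and synaptic genes lie between -0.14 and 0.05.

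Most immune genes differed by less than 2-fold, although the share past the limit was above that of all genes used. None of 22 genes of resting microglia differed by 2-fold (median ratio of 0.02), and P2ry12, their purinergic receptor, read 9.79 and 10.25. Of 23 genes of disease-associated microglia, 1 was lower, Spp1 (osteopontin), at 7.89 and 6.82, which fibroblasts also make. Trem2, the lipid receptor of this state, read 11.74 and 11.97, and Cst7 5.32 and 5.40. None of 16 complement genes differed by 2-fold, and C4b, a component known to increase with age, read 10.57, 10.22, 11.15, and 11.60. Over the immune lists together, 6 of 167 genes were higher and 5 lower (6.59%, against 4.09% of all genes used).

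The immune genes past the limit were scattered over lists. Cd74, the invariant chain of MHC class II, read 10.38, 8.54, 10.14, and 9.07 (ratio of -1.07), and Ifitm3 and Rsad2, both induced by interferon, had ratios of -1.13 and -1.04. Il33, an alarmin that oligodendrocytes release, read 11.04, 9.78, and 10.98 at 4, 17, and 22 months (ratio of 1.20) and so was high at 4 and 22 months, as the myelin genes were. Ccl5, a chemokine of T cells, read 7.93, 6.57, 6.20, and 7.49, and Cxcl5 read 4.54 and 6.22. Ccl11, Ccl7, and Tap1 were above background on 1 array of the pair only. Gdf15, a stress cytokine that increases with age, read 3.54, 4.34, 4.50, and 6.18 (ratio of 1.69, SE 0.32), and Trp53, the tumour suppressor p53, read 6.75, 6.64, 8.02, and 6.83 (ratio of -1.19).

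Markers of cells that do not belong to the cortex also differed between the arrays. These sets were put together after the values had been seen, so their counts describe the chosen members only. Of 11 neutrophil genes used, 8 were at least 2-fold lower at 22 months and 0 higher, where 2.03% of all genes used were lower. S100a9, a calcium-binding protein of neutrophils, read 6.98, 10.29, 10.38, and 7.41, and its partner S100a8 5.03, 8.44, 8.15, and 5.68. The granule genes Ngp, Ltf, and Retnlg were above background at 4 and 17 months and not at 1.5 or 22 months. The 4- and 17-month arrays were thus high, unlike the choroid plexus pattern. Csf3r, the receptor for granulocyte colony-stimulating factor, read 15.28 and 15.45, and Mmp8 and Cxcr2 were not above background on any cortex array.

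Of 11 genes of the olfactory mucosa used, 8 were lower and 0 higher, where 2.03% of all genes used were lower. Omp, the olfactory marker protein, read 6.52, 7.38, 9.13, and 7.21 (ratio of -1.92), and Cyp2g1, a cytochrome of that mucosa, 1.94, 4.32, 7.19, and 5.72. Of 7 melanocyte genes used, 4 were higher, where 2.06% of all genes used were. Dct, an enzyme of melanin synthesis, read 6.43, 5.73, 7.22, and 8.85, with its 2 probes at 1.46 and 1.80. Mlana read 5.26, 4.13, 6.16, and 7.91, Pmel 5.20 at 17 months and 6.83 at 22 months, and Tyrp1 4.31 and 5.93. Tyr, which starts melanin synthesis, read 4.07 and 4.10. The 8 olfactory genes at least 2-fold lower were highest at 17 months and the 4 melanocyte genes at 22 months.

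**Figure D4:**
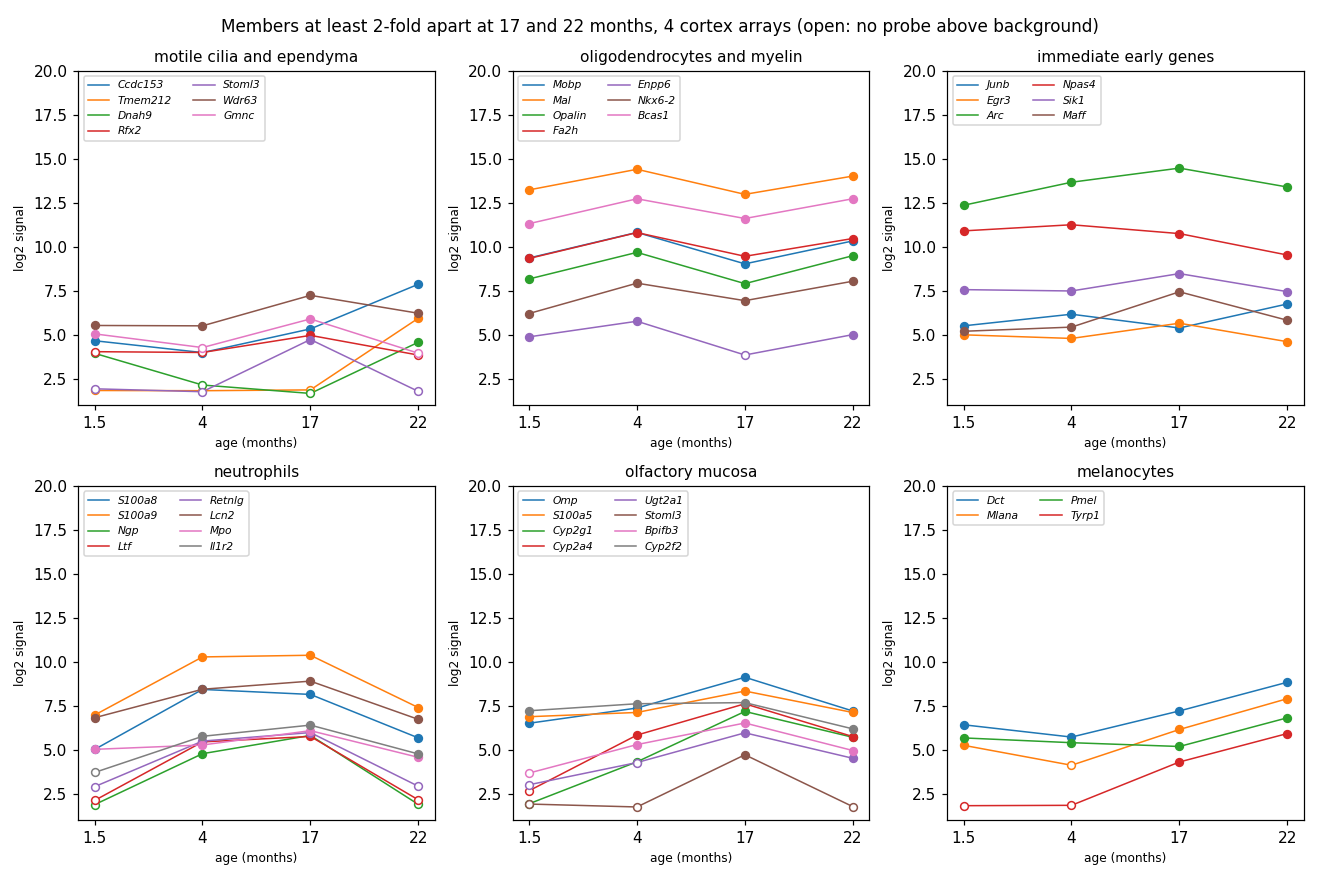
Log2 signal (vertical axis) at the 4 ages in months (horizontal axis, not to scale) for members of 6 gene sets that differed by at least 2-fold between 17 and 22 months, 1 line a gene; open points had no probe well above background. Myelin genes are low at 1.5 and 17 months, neutrophil genes high at 4 and 17 months, olfactory genes highest at 17 months, and melanocyte genes highest at 22 months.

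Among all genes with every probe above background on both arrays, the 12 widest decreases held 6 choroid plexus genes (Ttr, Otx2, Sostdc1, Clic6, Krt18, and Aqp1) and 3 neutrophil genes (S100a9, S100a8, and Lcn2). The other 3 were Krt17, a keratin of epithelia, at 4.02, 5.28, 7.67, and 5.02, Ccdc190, at 8.43, 9.50, 9.27, and 7.10, and Smim22, at 4.38, 3.70, 6.71, and 4.58. Krt17 and Smim22 shared the order of the choroid plexus genes, with 17 months highest. Among genes seen at 17 months but not at 22 months, the largest bounds after Kcne2 were those of Pramel7, at least 8.21-fold, Steap1, Tnni3, a cardiac troponin, at least 6.87-fold, and Olfr516, an olfactory receptor, at least 6.77-fold.

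The 12 widest increases held Ccdc153 and Mlana, and otherwise mostly genes of no common list. Thbs4, a thrombospondin of the matrix, read 6.61, 7.97, 6.98, and 8.92, Ms4a6d, a membrane protein of macrophages and microglia, 5.76, 6.20, 5.74, and 7.60, and Padi6, 5.55, 6.74, 5.78, and 7.80. These 3 genes were highest at 22 months. Wscd1, Rnu2-10, Med13l, and Cldn22 were lowest at 17 months instead, as in Wscd1, at 7.90, 7.99, 6.35, and 8.53. Genes seen at 22 months only were led by Kcne1, a potassium channel subunit, at least 10.0-fold higher, followed by Sohlh1, Mef2b, Trim38, and Spink14, at least 8.61, 8.16, 7.55, and 6.24-fold.

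Spots of Ankrd13b and Ublcp1 lay next to each other on the array, at rows 79 and 80 of column 77. At 17 months these spots read below the lowest of the other 11 arrays, by 1.25 for Ankrd13b and 1.60 for Ublcp1, and the spot at row 81 by 0.53. Low readings at 17 months thus lay together in neighbouring spots of 1 array. The second probe of Ublcp1, elsewhere on the array, had a ratio of 0.16, against 1.97 for the probe at row 80. The second probe of Ankrd13b, also elsewhere, had a ratio of 1.13, against 1.50 for the probe at row 79, and read 5.97 at 17 months, below the lowest of the other 11 arrays at 6.04. The low reading at 17 months was thus shared by both probes of Ankrd13b, whereas the ratios of the Ublcp1 probes were far apart.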

How the data were processed

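Gene expression was measured on 1-colour Agilent mouse arrays, 1 array for each age or model, with RNA pooled from 3 animals, amplified linearly, and labelled. The files hold scanner output: for each spot the authors deposited raw and background-corrected intensities, the signal error, and quality flags, before any normalization between arrays. Their matrix of processed values served as an alternative. No label or header used here names a genome build for these files. From the 12 scanner files, log2 of the processed signal was taken and control spots were left out. Outlier spots (180 to 220 on the 2 arrays compared) were left out where their probe had another spot that was not an outlier. A probe with only outlier spots kept its value, so the alternative with outlier spots kept alters, before normalization, only probes with several spots. Spots of a probe were averaged, and quantile normalization was applied over the 12 arrays. Of 39429 probes, 27508 (69.8%) matched a RefSeq symbol by accession. Probes of a gene were averaged; 5512 of 20886 genes had 2 or more. No spot was saturated, and precision is limited by having 1 array an age.

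Called means at least 2-fold, with no p-value, since each age had 1 array. There were 41 gene lists, and 4 sets (neutrophils, melanocytes, olfactory mucosa, and chromosome 4 neighbours) were added after the values had been seen. The members and lists were chosen with earlier results of these data known. Named were the 12 widest increases and decreases among genes above background on both arrays, the 5 largest bounds in each direction, and of each list up to 6 members past 2-fold and its first 4 members, leaving out predicted genes. Other list members, neighbouring spots, and predicted genes were chosen after their values were seen. Some genes that this rule names are not reported here. For the bounds, a dim array counts at its lowest log2 signal well above background, 4.21 at 17 months and 4.16 at 22 months, or at the gene's own signal if higher.

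The alternatives were scaling to the 75th percentile, quantile normalization over 4 or 2 arrays, normexp with an offset of 50 (on median signals, since the files used hold no mean signal), the filter of the methods (1.4-fold over background), above background on both arrays, no filter, other probe summaries, outlier spots kept, the matrix, and thresholds of 1.5-fold and 3-fold. Above background for every probe of a gene was added after the data had been seen. Steps were tested on simulated data. Python 3.11.15 with numpy 2.4.6, pandas 2.3.3, and matplotlib 3.10.9, and R 4.3.3 with limma 3.58.1 were used.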

Additional observations from a re-analysis of the deposited data

How the results depend on the processing

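No paired analysis was possible because each age had 1 array. Counts of genes depended on the treatment of dim probes. Against 322 higher and 318 lower genes, normexp gave 45 and 41, a flag on both arrays 157 and 144, no filter 576 and 596, a 1.5-fold limit 871 and 841, and a 3-fold limit 134 and 146. Normexp, which draws dim signals together, put the choroid plexus median at -0.69, with 12 choroid plexus genes lower and 4 myelin genes higher, and the flag on both arrays left 15 choroid plexus genes lower. Under the other alternatives, between 21 and 25 choroid plexus genes were lower, and their median lay between -1.37 and -1.19. The share of calls that were higher lay between 47.9% and 52.3% under all alternatives run. For single named genes, 1280 of 1388 values moved by less than the SD between probes, 105 moved by more, and 3 changed direction. Settings that change only which genes are used leave a ratio as it is, so their values could not move. Of the 105, 96 came from normexp, out of its 116 values. Nkg7, of natural killer cells, had a ratio of 1.11 as the mean of 2 probes and of -0.047 by its brightest probe or by probes above background, and Syn3 one of -0.42 by its brightest probe. With 1 array an age, neither the spread between animals nor that between arrays is known, and below a log2 signal of 6 a 2-fold difference was common.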

Other observations

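None of the 25 genes of cholesterol synthesis measured differed by 2-fold, the median ratio was 0.24, and 21 lay above 0. The 22-month array read highest of the 4 cortex arrays for 19 of the 25, and for 3763 of all 15661 genes used. Mvk, mevalonate kinase, read 10.89 at 17 months and 11.53 at 22 months, and Msmo1, a sterol oxidase, 13.50 and 14.06. The median ratio of 72 genes of oxidative phosphorylation was 0.07. None of 55 genes of cytosolic ribosomal proteins differed by 2-fold (median of 0.10).

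The brightest gene with a wide increase was Gm1987, a predicted chemokine gene related to Ccl21, which read 8.45, 7.84, 8.09, and 13.52 (ratio of 5.42, 1 probe). Gm3893 read 7.88, 7.71, 7.96, and 10.30, and Fam205a2 8.59, 8.57, 8.31, and 10.13, with 4 probes between 0.87 and 2.26. All 3 are assigned to chromosome 4, but Gm1987 holds place 4 among the genes used there, apart from the other 2. Gm3893, Gm13304 (ratio of 0.98), and Fam205a2 hold successive places, 138 to 140, next to Gm20878 (0.41). Ccl27a and Ccl19 on either side had ratios of 0.33 and 0.06. Gm1987 and the genes of this region have near-identical copies, so their probes may read each other's RNA and the gene behind a signal is uncertain. The hippocampus arrays ranged from 5.27 to 10.16 for Gm1987.

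Of 11921 probes without a symbol, 6328 were above background on the brighter array, and 239 of these were at least 2-fold higher and 246 lower. This is 7.66% in either direction, for single probes, against 4.09% of all genes used, whose probes were averaged.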
